A study of Mus musculus with 8 samples.

Results

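The 9 genes described here act in the uptake and sensing of glucose. They are the facilitative glucose transporters Slc2a2, Slc2a1 and Slc2a3, the hexokinase Hk2, the islet glucose-6-phosphatase G6pc2 and the sulfonylurea receptor Abcc8. The others are the thioredoxin-interacting protein Txnip and the glucose-responsive transcription factor Mlxipl with its partner Mlx. All 9 were found by the gene name that the scanner files give to each probe, and 12 of the 39429 probes carry such a name. Of these, 11 were well above background on at least 4 of the 8 arrays and entered the comparison of diets, together with 26076 probes in all. The probe for Hk2 was the one left out.

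Expression was measured in samples that the labels call pancreatic beta cells, from C57BL/6 mice fed either the control (chow) diet or a high-fat diet. Each diet had 4 samples, described as biological replicates, and each sample was labelled with Cy3 and hybridised to its own Agilent array. The composition and duration of the diets, the age of the animals, the number of animals behind a sample and the way the cells were isolated are not given in the sources used here. Levels are given as the log2 of a probe's signal minus the 75th percentile of its array, so that 0 is the level of that percentile and 1 unit is a doubling.

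The 8 arrays had between 63.6% and 68.6% of their 43020 non-control spots well above background, none saturated, and a 75th percentile between 335.8 and 715.4 intensity units. They lay on 2 slides, with 2 arrays of each diet per slide. Control samples were at positions 1 and 3 of both slides and high-fat samples at 2 and 4, so position and diet cannot be told apart. All 8 beta cell markers were measured, with a summed log2 level of 9.55 to 10.04 in the control and 9.68 to 10.1 in the high-fat samples. Acinar enzymes, at 10.17 to 11.22 and 10.48 to 11.34, and alpha cell markers, at 7.72 to 8.24 and 7.58 to 8.15, were also well above background, so the samples held RNA of other pancreatic cells. In such bulk samples, fewer cells of a type and less RNA per cell cannot be told apart.

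A beta cell releases insulin in proportion to the glucose that it metabolises. In the mouse, glucose enters mainly through GLUT2, the product of Slc2a2, and is phosphorylated on entry. G6pc2 removes that phosphate again and so works against the first step of glycolysis. The ATP made from glucose closes a potassium channel whose regulatory subunit is SUR1, the product of Abcc8, and the depolarisation that follows opens calcium channels. Glucose also acts on transcription through ChREBP, the product of Mlxipl, which binds paired E-boxes together with Mlx. Txnip is one of its best known targets in islets. Its protein binds thioredoxin and lowers glucose uptake, in part by promoting the internalisation of GLUT1. GLUT1, GLUT3 and Hk2 have a high affinity for glucose and are kept low in mature beta cells.

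The signal of each gene is that of 1 or 2 probes of 60 bases, which decides what part of the transcript was read. The first 30 bases of the probes for the genes with the smallest p-values are shown 5′ to 3′, with positions on mm9, the build named in the scanner files. The exon or UTR at these positions was not annotated here.
Slc2a2, A_51_P185693, chr3:28627016-28627075, plus strand: tagtttctttgatgtattttgcaaggttaa
Slc2a3, A_52_P354744, chr6:122678075-122678134, minus strand: gtgcttacacatttcagaccctttaggcaa
G6pc2, A_55_P2058761, chr2:69065947-69066006, plus strand: gcatccccatgttttacttctaagagtcaa
Txnip, A_51_P438805, chr3:96365147-96365206, plus strand: ctaaggtgatgttcttagcactttagcttg
None of these 4 probes shared a run of 16 bases with a probe of another gene on the array.

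Txnip, Abcc8 and Mlxipl had a pair of probes each. The other Txnip probe, A_55_P2006255 (chr3:96364206-96364265), starts 941 bases upstream of the one above, and its first 30 bases are shown to set the pair side by side.
Txnip, A_55_P2006255, plus strand: tggacgactctcaagacagccctatcttta
The Abcc8 probes (chr7:53359908-53359967 and chr7:53359921-53359980, minus strand) overlap by 47 of their 60 bases, so they are nearly 1 measurement. The Mlxipl probes (chr5:135613705-135613764 and chr5:135614195-135614252) start 490 bases apart. The downstream one, A_55_P2045158, is the only member probe with a run of 16 bases in common with probes of other genes, 7 probes of 7 genes. Its bases 31 to 60 follow, with the shared stretch of 17 bases in capitals.
Mlxipl, A_55_P2045158, plus strand: atgCACACCTTTAATCCCAGtacttgggag

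The promoters of the members were searched because Mlxipl and Mlx act through E-boxes. RefSeq promoters of 300 bases on GRCm38.p6, 250 before and 50 after the start, were at hand for 7 of the 9 genes (9 promoters). The E-box pair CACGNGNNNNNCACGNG, searched on both strands, was in the Txnip promoter alone among them, from -85 to -69 relative to the start, and in 16 of all 32851 promoters (0.0487%). The 130 bases up to the Txnip start (chr3:96557827-96557956, plus strand) are shown with the pair in capitals.
Txnip promoter: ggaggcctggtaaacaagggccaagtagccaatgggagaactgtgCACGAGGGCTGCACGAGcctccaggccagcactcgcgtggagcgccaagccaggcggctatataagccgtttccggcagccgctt
A perfect E-box, CACGTG, was in the Mlxipl promoter (-98 to -93) and in that of Mlx (-40 to -35), as in 7.15% of all promoters. These matches describe the sequences and are not evidence of binding.

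The question put to the arrays was whether the level of each member differed with the diet. Slc2a3 and Slc2a2 stood lower and G6pc2 and Txnip higher in the high-fat samples, by 2.87-, 1.39-, 1.26- and 1.45-fold, while Abcc8 and Mlx stood within 0.1 log2 units of the control. None of these differences passed the test. With limma and Benjamini-Hochberg adjustment over all 26076 probes, 0 of the 11 member probes and 0 probes in all (0%) had an adjusted p under 0.05. At an unadjusted p under 0.05 there were 4 of the 11 member probes, 2 higher and 2 lower, where 5.80% of all probes met that limit (2.41% higher and 3.39% lower). The groups did not overlap for 2 of the 11, Slc2a3 and G6pc2, against 3.35% of all probes (1.63% higher and 1.72% lower). The genes were picked with earlier results of these data known, so this contrast with the background is a description.

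**Figure D1:**
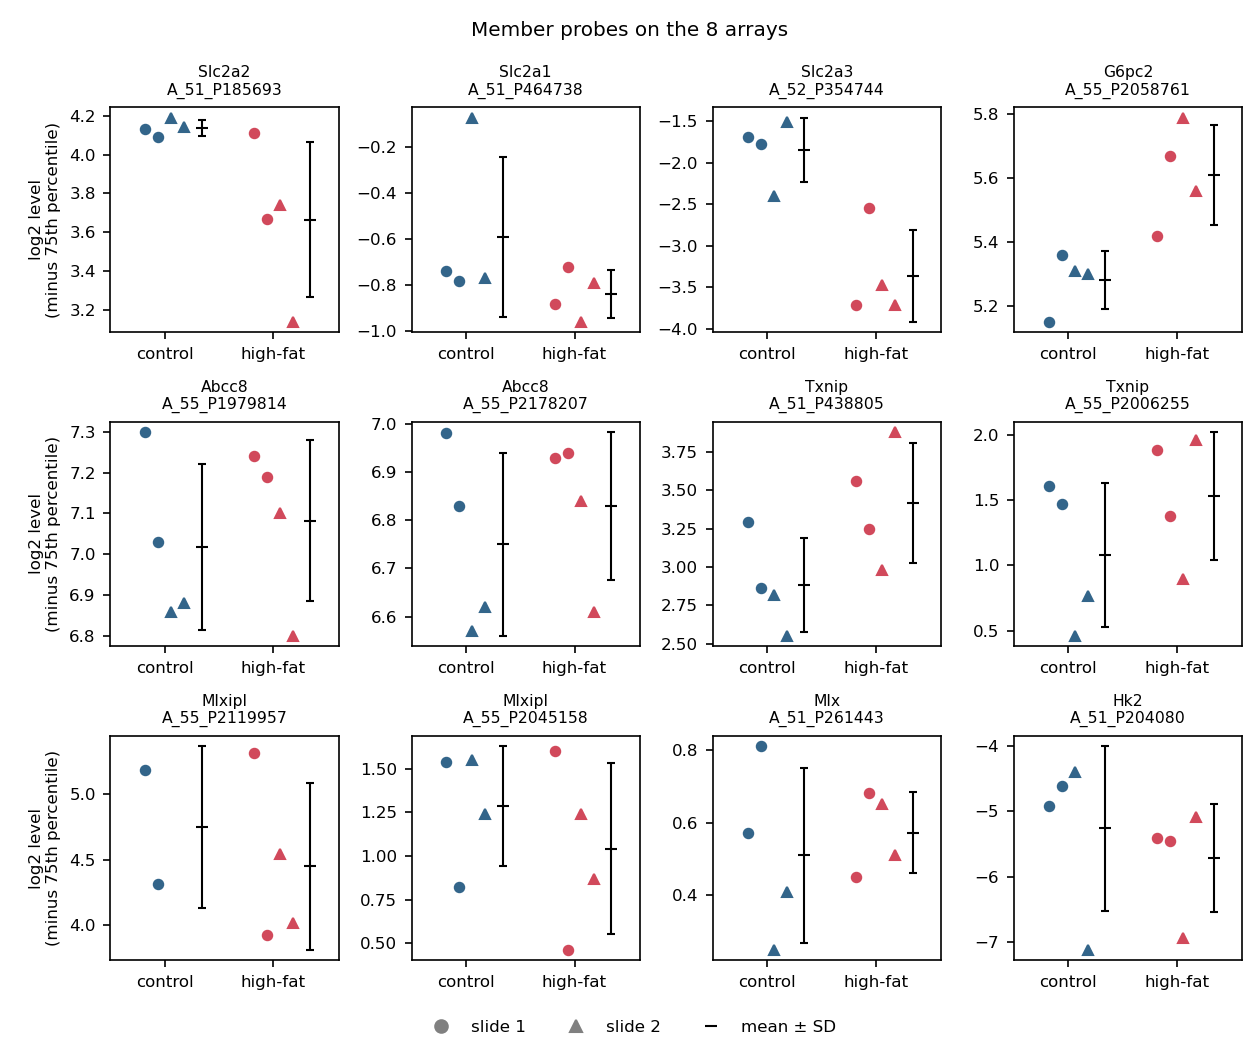
Log2 level of the 12 member probes, 1 panel per probe with its own axis, in the 4 control (blue) and 4 high-fat samples (red); circles are slide 1, triangles slide 2, and bars the mean ± SD. The groups are apart for Slc2a3 and G6pc2, and the control samples of Slc2a2 lie within 0.1 log2 units of each other while its high-fat samples spread from 3.14 to 4.11; the bright Mlxipl probe has 2 control samples only, and Hk2 is near background.

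Slc2a2 encodes GLUT2, the low-affinity transporter of mouse beta cells and hepatocytes. Its log2 level was 4.13, 4.09, 4.19 and 4.14 in control replicates 1 to 4, and 4.11, 3.67, 3.74 and 3.14 in high-fat replicates 1 to 4. High-fat replicate 1 was at the control level and the other 3 were below every control sample. The SD was 0.041 in the control group, as low as in only 0.978% of the probes tested. In the high-fat group it was 0.40, and 22.6% of the probes tested had an SD at least as large there. The difference, high-fat minus control, was -0.47 ± 0.19 (SE, n = 4 per diet), with an unadjusted p of 0.0368 and an adjusted p of 0.826 by limma and an exact two-sided permutation p of 0.0571. It was -0.22 on slide 1 and -0.72 on slide 2, and -0.30 without high-fat replicate 4.

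Slc2a1 encodes GLUT1, a transporter of most dividing cells and of endothelium. The control samples stood at -0.74, -0.78, -0.07 and -0.77 and the high-fat samples at -0.88, -0.72, -0.96 and -0.79. The groups overlap, and control replicate 3 stands 0.94 of the group's range above the other control samples. The difference of -0.25 ± 0.18 (adjusted p = 0.918, limma) was -0.08 without that replicate. The slides gave -0.04 and -0.46. The endothelial markers, of which 4 of 5 had a difference above 0, had summed levels of 5.17 to 5.52 in the control and 5.38 to 5.57 in the high-fat samples.

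Slc2a3 encodes GLUT3, the high-affinity transporter of neurons and of several blood cells. It gave the widest gap of the members. Its levels were -1.69, -1.77, -2.40 and -1.51 in the control samples and -3.71, -2.55, -3.48 and -3.72 in the high-fat samples, so every high-fat sample lay below every control sample. The difference was -1.52 ± 0.30, with an adjusted p of 0.389 by limma and an exact two-sided permutation p of 0.0286, the smallest that 4 against 4 samples can give. It was -1.40 on slide 1 and -1.65 on slide 2, and between -1.79 and -1.40 when 1 sample was left out. The signal behind it was dim, from 63.72 to 221.2 intensity units in the control and from 27.74 to 81.4 in the high-fat samples. The size differed between settings. It was -0.69 with normexp background correction (offset 50) after spots of high local background were left out, -0.23 with normexp on all spots, and -0.28 in the authors' deposited value table. The adjusted p was between 0.181 and 0.959 over the settings tried.

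Markers of other cell types were read beside Slc2a3. Of the 4 Schwann cell and neuron markers 3 had a difference below 0, with summed levels of 2.27 to 2.86 in the control and 1.77 to 2.33 in the high-fat samples. All 4 were well above background on all arrays. Of the 5 leukocyte markers 3 had a difference below 0, among them Ptprc (CD45) at -0.66 ± 0.31, and 2 above 0, among them Cd3e at 0.20 ± 0.25. The summed levels of the 5 were 2.72 to 3.30 and 2.58 to 3.56. These sums mostly follow Cd3e, by far the brightest of them, with a control mean of 2.75. Of the 6 alpha cell markers all had a difference below 0 and 4 had an unadjusted p under 0.05, as did 4 of 5 delta and PP cell markers. On the same 1 probe per gene, 3.25% of 19994 genes were lower at that limit. Irx1, a transcription factor of alpha cells, stood at -1.10 ± 0.22 and Hhex, one of delta cells, at -0.60 ± 0.11. Among the hormone genes, Gcg of alpha cells stood at -0.16 ± 0.16, Ppy of PP cells at -0.03 ± 0.24 and Sst of delta cells at -0.39 ± 0.10. The summed levels of the delta and PP cell list were 8.14 to 8.46 in the control and 7.82 to 8.15 in the high-fat samples. Those of the alpha cell list, 7.72 to 8.24 and 7.58 to 8.15, overlapped over most of their range. The part of these cells in the Slc2a3 difference was not tested.

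**Figure D2:**
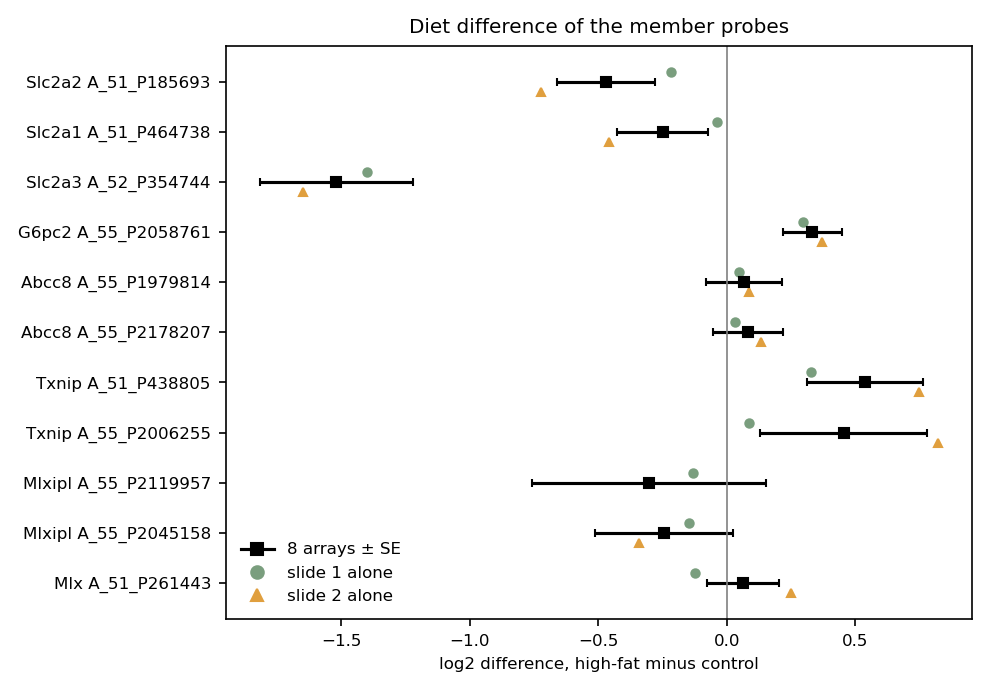
Log2 difference, high-fat minus control, of the 11 member probes tested: squares give the 8 arrays with the SE, green circles slide 1 alone and orange triangles slide 2 alone. Slc2a3 stands farthest from 0 on both slides (-1.40 and -1.65), and Mlx stands on opposite sides of 0 (-0.13 and 0.25).

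Hk2 encodes hexokinase 2, the insulin-responsive hexokinase of muscle and fat. Its probe was well above background on 3 of 4 control arrays and on 0 of 4 high-fat arrays. The signal was 23.63, 19.4, 15.91 and 3.202 intensity units in the control samples and 8.54, 10.89, 3.778 and 11.55 in the high-fat samples. Against the lowest signal measured above background on the high-fat arrays, a mean log2 level of -5.18, the control mean of -5.26 gave no bound. So no fold is given. That control mean includes replicate 4 as measured, at -7.12 and not well above background. Control replicates 1 to 3 stood at -4.92, -4.61 and -4.40. Hk2 was dim in both groups at the sensitivity of these arrays.

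G6pc2 encodes the catalytic subunit of glucose-6-phosphatase that is found mainly in islets. The control samples stood at 5.15, 5.36, 5.31 and 5.30 and the high-fat samples at 5.42, 5.67, 5.79 and 5.56. Every high-fat sample lay above every control sample, although control replicate 2 and high-fat replicate 1 were only 0.06 apart. The difference was 0.33 ± 0.11, with an unadjusted p of 0.0186 and an adjusted p of 0.773 by limma and an exact permutation p of 0.0286. It was 0.30 on slide 1 and 0.37 on slide 2. Quantile normalization gave 0.18 and the authors' deposited values gave 0.19, and the sign turned with normexp on all spots (-0.07).

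The ratio of 2 probes within an array does not depend on the scaling between arrays, and the ratio of G6pc2 to Slc2a2 sets the enzyme that works against glucose phosphorylation beside the transporter that admits glucose. On the log2 scale it was 1.02, 1.27, 1.13 and 1.16 in the control samples and 1.32, 2.01, 2.05 and 2.42 in the high-fat samples. No high-fat sample was as low as any control sample. The mean was 1.15 ± 0.10 in the control and 1.95 ± 0.46 in the high-fat group (SD, n = 4), a difference of 0.80 or 1.75-fold, with 0.52 on slide 1 and 1.09 on slide 2. Under the other background corrections and scalings the difference was between 0.75 and 0.87. The groups overlapped slightly with quantile normalization, where the highest control was 1.36 and the lowest high-fat 1.28, and in the authors' deposited values, with 1.17 and 1.13. The ratio joins a pair of genes already seen to differ in opposite directions and is given without a test. The ratio of Slc2a1 to Slc2a2 differed by 0.22, within the SDs of 0.31 and 0.45.

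**Figure D3:**
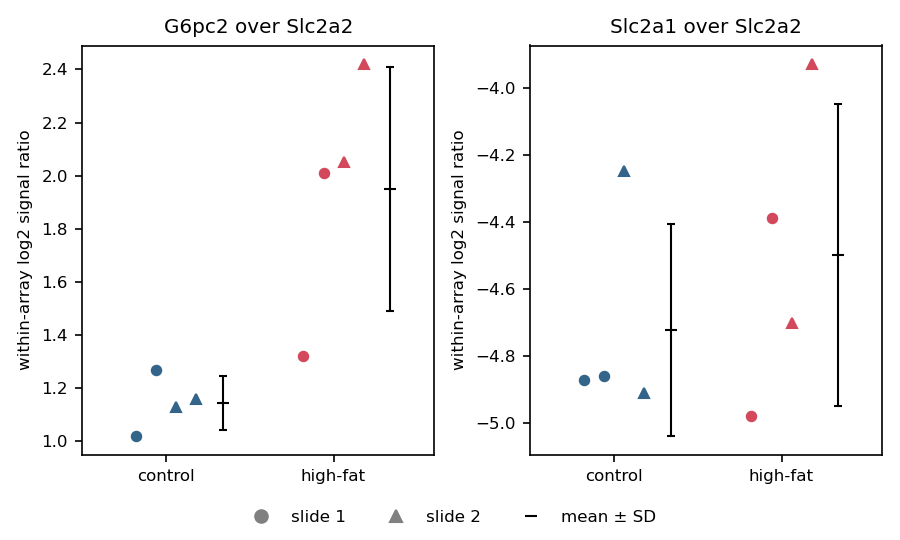
Log2 ratio of the signals of G6pc2 to Slc2a2 (left) and of Slc2a1 to Slc2a2 (right) within each array, in the control (blue) and high-fat (red) samples, with slide 1 as circles, slide 2 as triangles and the mean ± SD. G6pc2 over Slc2a2 runs from 1.02 to 1.27 in the control and from 1.32 to 2.42 in the high-fat samples, while the groups overlap for Slc2a1 over Slc2a2.

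Abcc8 encodes SUR1, the regulatory subunit of the ATP-sensitive potassium channel and the receptor of sulfonylurea drugs. Probe A_55_P1979814 stood at 7.30, 7.03, 6.86 and 6.88 in the control and at 7.24, 7.19, 7.10 and 6.8 in the high-fat samples. The groups overlapped almost wholly, with a difference of 0.07 ± 0.15 (adjusted p = 0.963, limma). The overlapping probe A_55_P2178207 gave 0.08 ± 0.14. Leaving out 1 sample gave 0.015 to 0.163 and 0.021 to 0.159. Both probes stood lower on slide 2 than on slide 1, by 0.28 ± 0.11 and 0.26 ± 0.10, a slide difference larger than that between the diets (unadjusted p = 0.0392 and 0.0288, adjusted p = 0.241 and 0.211, limma). The difference between slides had an adjusted p under 0.05 for 2.77% of all probes.

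Txnip encodes the alpha arrestin that binds thioredoxin. Probe A_51_P438805 stood at 3.29, 2.86, 2.82 and 2.55 in the control and at 3.56, 3.25, 2.98 and 3.88 in the high-fat samples. The groups overlapped, since control replicate 1 was above high-fat replicates 2 and 3. The difference was 0.54 ± 0.23, with an unadjusted p of 0.0441 and an adjusted p of 0.836 by limma and an exact permutation p of 0.0857. The slides gave 0.33 and 0.75. The upstream probe A_55_P2006255 stood at 1.61, 1.47, 0.46 and 0.77 in the control and at 1.88, 1.38, 0.90 and 1.96 in the high-fat samples. Its difference of 0.45 ± 0.33 (adjusted p = 0.918, limma) had the same sign, with 0.09 on slide 1 and 0.82 on slide 2, and was 0.25 without control replicate 3. High-fat replicate 4 was the highest sample on both probes.

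Mlxipl encodes ChREBP. On its brighter probe, A_55_P2119957, the scanner software marked the spots of control replicates 3 and 4 as non-uniform, so the control group had 2 values. These were 5.19 and 4.31, against 5.32, 3.92, 4.54 and 4.01 in the high-fat samples. The difference of -0.30 ± 0.46 (adjusted p = 0.948, limma) turned to 0.14 without control replicate 1. Both control values were from slide 1 and the high-fat values from both slides, so this difference mixes diet with slide. On slide 1 alone it was -0.13. The marked spots, if kept, would have stood at 4.69 and 4.58, inside the range of the others. The downstream probe A_55_P2045158, which holds the shared stretch shown above, stood at 1.54, 0.82, 1.55 and 1.24 in the control and 1.6, 0.46, 1.24 and 0.87 in the high-fat samples. Its difference was -0.25 ± 0.27 (adjusted p = 0.931, limma), and between -0.43 without high-fat replicate 1 and -0.05 without high-fat replicate 2. On both probes replicate 1 of each diet stood above replicate 2.

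Mlx encodes the dimerisation partner of ChREBP. It stood at 0.57, 0.81, 0.25 and 0.41 in the control and at 0.45, 0.68, 0.65 and 0.51 in the high-fat samples. The difference of 0.06 ± 0.14 (adjusted p = 0.964, limma) had opposite signs on the slides, -0.13 and 0.25.

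Whether the diet difference itself differed between slides was tested with an interaction term. The diet by slide interaction passed the adjusted threshold for 0 of the 10 member probes that it could be fitted to, and for 0 of 26041 probes in all (0%). The interaction had an unadjusted p under 0.05 for 6.52% of all probes, and the smallest among the members was 0.159, for Mlx. For Slc2a2 the slides differed by -0.50 ± 0.34 (unadjusted p = 0.189, adjusted p = 0.822, limma).

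**Figure D4:**
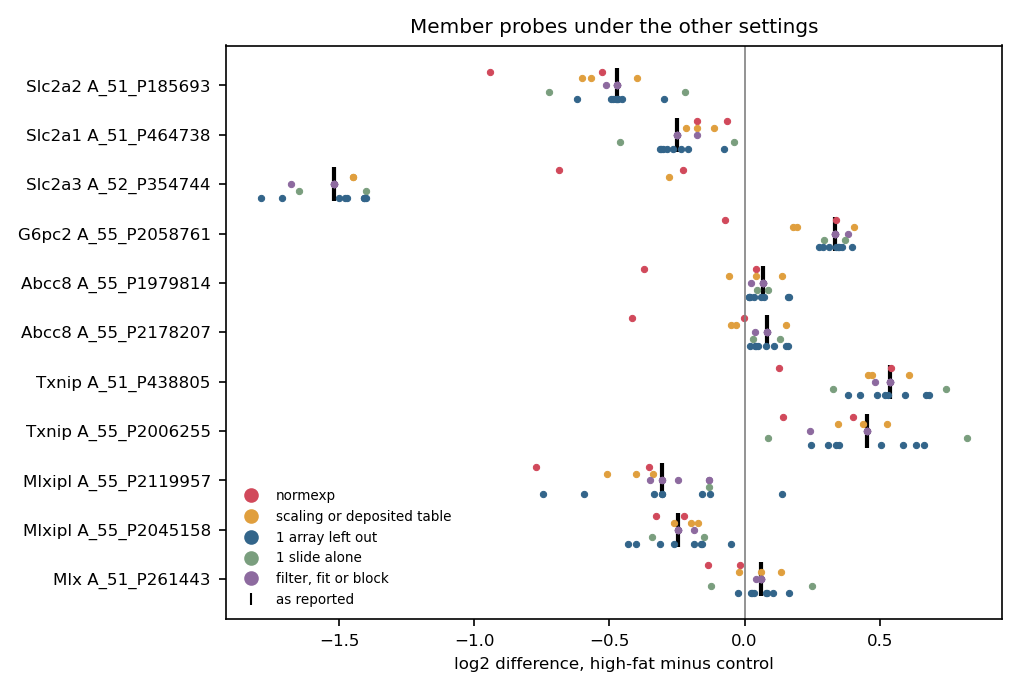
Log2 difference, high-fat minus control, of the 11 member probes as reported (black bars) and under each other setting (dots, coloured by the kind of setting). The dots of Slc2a2, Slc2a1, Slc2a3, both Txnip probes and the Mlxipl probe A_55_P2045158 stay on 1 side of 0, and those of G6pc2 cross it once, at -0.07.

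Across the 8 arrays, Slc2a2 and Slc2a3 correlated at a Pearson r of 0.61, and each of them ran against Txnip (-0.66 and -0.70) and against G6pc2 (-0.66 and -0.67). G6pc2 and Txnip correlated at 0.24 only, and Abcc8 stood near 0 with G6pc2 (-0.02) and Slc2a3 (0.01). These coefficients describe 8 arrays that include the difference between diets, and carry no test. The genes whose levels followed Slc2a2 most closely among 19857 genes were Jade2 (r = 0.981, Spearman's rho = 0.833), Hivep3 (0.975 and 0.905) and Trim37 (0.974 and 0.905). For G6pc2 they were Fam210b (0.964 and 0.881), 1810011O10Rik (0.958 and 0.905) and Def8 (0.956 and 0.905). Txnip was followed by Pkmyt1 (0.942 and 0.976), Piga (0.930 and 0.905) and Mecr (0.904 and 0.857). Each trio holds the highest of 19857 coefficients over 8 arrays.

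The other genes of the pathway were read through 6 lists, with 1 probe per gene. Over all 19994 genes the median difference was 0.00, 5.76% had an unadjusted p under 0.05, with 2.51% on the higher and 3.25% on the lower side, and 0 passed the adjusted threshold. Of the same 19994 genes, 356 had no overlap of the groups with the high-fat samples higher, and 335 with them lower. In no list did a gene pass the adjusted threshold.

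Of 14 other sugar transporters 10 were measured, 6 with a difference above and 4 below 0, with a median of 0.13 that was -0.03 without control replicate 2 and -0.009 on slide 2; 2 were higher at an unadjusted p under 0.05 and none lower. Slc2a6, which encodes the lysosomal transporter GLUT6, stood at 0.13, 0.41, -0.21 and 0.11 in the control and at 0.31, 1.85, 1.1 and 1.85 in the high-fat samples. High-fat replicate 1 lay among the controls and the other 3 above them. The difference was 1.17 ± 0.34, with an unadjusted p of 0.00842 and an adjusted p of 0.705 by limma, and 0.81 on slide 1 and 1.53 on slide 2. Slc2a13, the proton-coupled myo-inositol transporter, stood at 0.28 ± 0.10 and its groups did not overlap. The fructose transporter Slc2a5 stood at 0.15 ± 0.09 (unadjusted p = 0.153, limma), also without overlap, and Slc2a8, an intracellular hexose transporter, at 0.11 ± 0.10.

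Among 15 genes of the other hexokinases and of glucose-6-phosphate handling, 14 were measured, 12 above and 2 below 0, with a median of 0.11 that turned to -0.18 with normexp on all spots. Pgm1, a phosphoglucomutase, stood at 0.40 ± 0.12 (adjusted p = 0.731, limma) with no overlap of the groups. Gfpt1, the first enzyme of the hexosamine pathway, stood at 0.16 ± 0.10 (unadjusted p = 0.139, limma), also without overlap. Hkdc1 and Hk3, at 1.41 ± 1.01 and -0.69 ± 0.52, were dim and uneven, and Hkdc1 gave 3.04 on slide 1 and -0.21 on slide 2.

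The list of Mondo factors, their antagonists and glucose-responsive targets, in which Mlxipl and Mlx act, had 21 of 22 genes measured. Of these 10 stood above and 11 below 0, with a median of -0.04 that turned sign with other scalings and differed between slides (0.20 and -0.19). Thrsp, a lipogenic ChREBP target, stood at -1.76, -1.59, -1.94 and -1.64 in the control and at -1.39, -1.22, -1.25 and -1.03 in the high-fat samples. All high-fat samples were above all control samples, with a difference of 0.51 ± 0.13 (unadjusted p = 0.00319, adjusted p = 0.553, limma). The lipogenic enzymes Scd1, a stearoyl-CoA desaturase, and Acaca, an acetyl-CoA carboxylase, stood the other way, at -0.59 ± 0.23 and -0.24 ± 0.10, each without overlap. Mxd4, a Max-binding repressor, stood at 0.21 ± 0.12. The 3 differences with an unadjusted p under 0.05 in this list thus lay on both sides of 0. The E-box pair, in the layout searched above, was in 0 of the 17 genes of this list with a promoter at hand. That search covered a single layout within 300 bases, so it cannot show that these genes lack a pair of another layout.

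The remaining lists had no gene at an unadjusted p under 0.05. Of the 9 alpha arrestins and thioredoxin partners, 6 stood above and 3 below 0, with a median of 0.02, Txn2, the mitochondrial thioredoxin, at 0.24 ± 0.12, Txn1, the cytosolic one, at 0.31 ± 0.23, and the arrestins Arrdc2 at 0.16 ± 0.18 and Arrdc5 at 0.40 ± 0.52. Of the 8 measured relatives and regulators of the ATP-sensitive potassium channel, 3 stood above and 5 below 0, with a median of -0.03 that was 0.0079 without control replicate 1. The exocytosis scaffolds Rims2 and Pclo stood at -0.33 ± 0.17 and -0.25 ± 0.15, the kinase subunit Prkacb at 0.08 ± 0.09 and the cAMP sensor Rapgef3 at -0.08 ± 0.19. Of the 17 measured hypoxia-inducible genes, the class to which Slc2a1, Slc2a3 and Hk2 are known to belong, 10 stood above and 7 below 0, with a median of 0.02. The prolyl hydroxylases P4ha2 and P4ha1 stood at 0.32 ± 0.21 and 0.29 ± 0.22, the lactate exporter Slc16a3 at 0.46 ± 0.29, and the glycolytic kinase Pgk1, with 3 control arrays, at 0.34 ± 0.23.

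**Figure D5:**
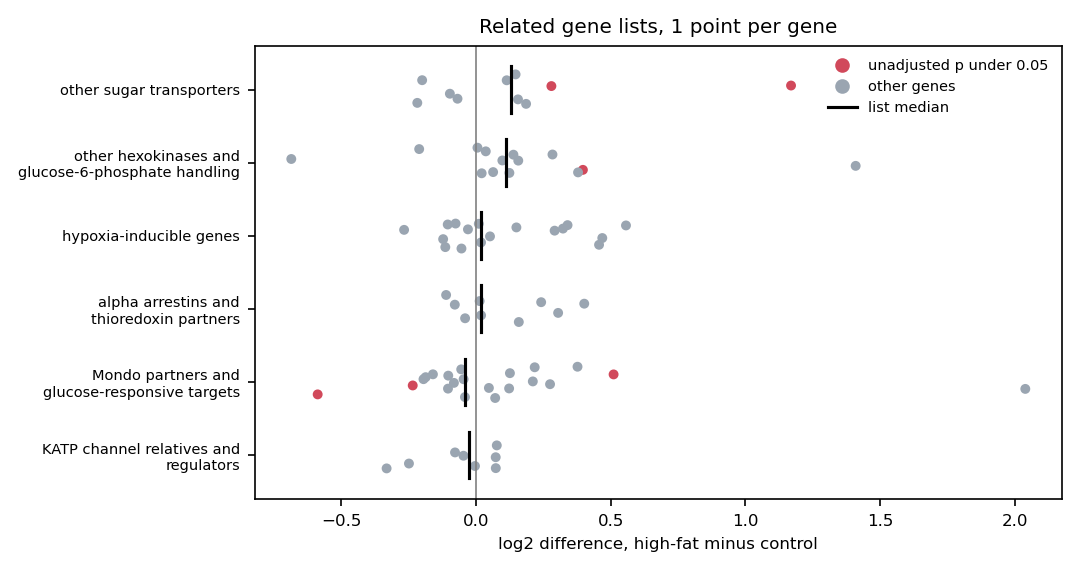
Log2 difference, high-fat minus control, of each measured gene (dots) in the 6 lists, with the list median as a black bar and genes at an unadjusted p under 0.05 in red. The red dots are Slc2a6 and Slc2a13, Pgm1, and Thrsp, Scd1 and Acaca, and no median lies farther from 0 than 0.13.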

How the data were processed

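Single-colour Agilent arrays of 4 control and 4 high-fat samples were read from the scanner files, made with Feature Extraction 11.5.1.1 per the file headers. The deposited signal is an intensity per spot, background-subtracted by that software. The authors' deposited value table holds log2 values of the same arrays; its scale was found from the scanner signals (r = 0.934 to 0.95 per array, column medians 8.681 to 8.689), and its background and normalization steps are not given in the sources used here beyond limma, named without a version in the submitters' processing notes. It was used as an alternative only.

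Here, log2 signals were taken minus each array's 75th percentile, control spots and spots marked as outliers (125 to 228 per array) were left out, and spots of a probe were averaged. The 26076 probes that 4 or more of the 8 arrays measured well above background entered 1 limma model (version 3.58.1, R 4.3.3, lmFit and eBayes), without covariates, and p-values were adjusted by Benjamini-Hochberg with a threshold of 0.05. Log2 differences had a median SE of 0.174, and the number of arrays limits the precision. Lists used the probe of highest mean per gene, and summed levels are the log2 of the summed signals of a list. For exact permutation tests the group labels of the 8 samples were permuted. Tables were prepared with Python 3.11.15.

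Named genes were all members, up to 4 genes per list by the smallest unadjusted p, and the 3 genes most correlated with Slc2a2, G6pc2 and Txnip. Arrdc4, Mlxip and Pklr and the hormone genes Gcg and Ppy were named outside this rule. The members and lists were chosen with earlier results of these data known. The alternatives were normexp background correction (offset 50) with all spots or without spots whose local background exceeded 4 times the array's median, other scalings, the deposited table, other filters, 1 probe per gene, other eBayes settings and array weights, slide and replicate blocks, slides alone and samples left out. Keeping the outlier spots was added after the data were seen. The procedure was tested on simulated data with 200 changed probes. It recovered 0% of them at a log2 shift of 0.5, 46% at a shift of 1 and 83.5% at a shift of 2. Sequences are from the array files and RefSeq. Some results are not reported here.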

Additional observations from a re-analysis of the deposited data

Results flagged for a closer look

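In 1 of the 23 groups of member values that could be checked, 1 sample stood far from the others. Slc2a1 was at -0.07 in control replicate 3, against -0.78 to -0.74 in the other 3 control samples, a gap of 0.94 of the group's range, above the critical value of Dixon's test. Chance gives such a gap in about 1 in 20 groups. Without this sample the Slc2a1 difference was -0.08 in place of -0.25.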

How the results depend on the processing

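No member probe passed the adjusted threshold under any setting, and over all probes the count was 0 except for 1 with the deposited value table, 1 with a trended and robust eBayes and 0 to 2 when 1 sample was left out (2 without high-fat replicate 1). The difference in the Slc2a1 to Slc2a2 ratio was 0.88 with normexp on all spots, and the interaction count was 0 wherever it was fitted. Signs turned for Mlx (-0.14 with normexp, -0.018 with normexp without high-background spots, -0.021 with the deposited table, -0.13 on slide 1, and -0.024 to 0.163 with 1 sample left out), Abcc8 A_55_P1979814 (-0.37 with normexp, -0.057 with quantile normalization), Abcc8 A_55_P2178207 (-0.42 with normexp, -0.0012 with normexp without high-background spots, -0.052 with quantile normalization, -0.031 with the deposited table), G6pc2 (-0.073 with normexp) and Mlxipl A_55_P2119957 (-0.746 to 0.139 with 1 sample left out, above 0 without control replicate 1). The cause was not tested. Normexp on all spots moved the median of all probes to 0.19, a fit that includes spots of high-fat replicate 2 whose local background reached 261989 intensity units, and gave Slc2a2 at -0.94 and Txnip at 0.13. The 4 member probes at an unadjusted p under 0.05 became 1 with normexp, 2 with quantile normalization or the deposited table and 2 to 3 with 1 sample left out. Over all probes 1513 became 165 with normexp and 895 without its high-background spots, 2632 with array weights, 2481 without control replicate 3 and 2703 without high-fat replicate 1.

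Replicate numbers were not taken as pairs: deviations of same-numbered samples correlated at 0.237, 0.394, -0.024 and 0.299, and number 3 did not correlate best with its own. With the replicate number as a block, 0 member probes and 0 probes in all passed the adjusted threshold, 2435 probes in place of 1513 had an unadjusted p under 0.05, and the adjusted p was 0.528 for Slc2a2 and 0.483 for Slc2a3. Dim signal limits Slc2a3 and Hk2.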

Other observations

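Hkdc1, a hexokinase-like enzyme, was highest in 3 samples, at -1.09 in control replicate 4 and at -0.95 and -0.57 in high-fat replicates 2 and 4, against -5.52 to -1.86 in the other samples. These 3 samples took position 3 or 4 on their slide, as did control replicate 2, which stood at -3.37.

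The glucose-dependent ChREBP target Arrdc4, an alpha arrestin like Txnip, stood at 0.07 ± 0.12 and the ChREBP paralogue Mlxip at -0.05 ± 0.17, and Pklr, the liver-type pyruvate kinase, at -0.08 ± 0.30 (adjusted p = 0.956, 0.975 and 0.980, limma). None of the 3 was apart between the diets.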
